A study of Mus musculus with 10 samples.

Results

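The autophagy machinery was described as 41 genes, taken by gene name from the 54532 genes of a liver RNA sequencing table, whose products start, build, load or regulate the autophagosome. All 41 were found, and all 41 passed the filter on low values, which kept 13306 genes. A gene was kept when it reached 10 reads, after scaling by total reads, in 5 or more of the livers and 15 reads over the series. By role they were 5 genes of the ULK complex, 6 of the class III PI3K complex, 6 of membrane supply, 7 of the conjugation systems, 4 Atg4 proteases, 6 cargo receptors and 2 transcription factors, with 5 further members that enter the counts over all 41 and are not reported singly. Bulk RNA sequencing of liver was available for 5 ASK1f/f mice and 5 ASK1+hep mice. ASK1f/f mice, on a C57BL/6J background, were homozygous for murine ASK1 cDNA behind a lox-stop-lox cassette at ROSA26, and ASK1+hep mice came from crossing them to Alb-Cre mice, which removes the stop cassette in hepatocytes, while ASK1f/f littermates served as controls. How many copies of the construct ASK1+hep mice carried is not given in the sources used here. All 10 mice had been on a high fat diet (HFD) for 7 weeks, begun when they were 6 weeks old, and food was withheld for 5 h before tissue collection. ASK1, encoded by Map3k5, is a stress-activated kinase upstream of p38 and JNK, and the comparison asks which liver transcripts differ when hepatocytes overexpress it on HFD.

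Autophagy delivers cytoplasm, damaged organelles and protein aggregates to the lysosome in a double-membraned vesicle, the autophagosome. The ULK kinase complex responds to mTORC1 and AMPK and starts the process, the class III PI3K complex marks the site with a phosphoinositide, ATG9 and ATG2 bring lipid, conjugation enzymes act on the growing membrane, and cargo receptors hold what is to be degraded. In liver the pathway supplies amino acids during fasting and takes part in the turnover of lipid droplets and mitochondria, and TFEB, TFE3 and ATF4 are known to act on genes of the pathway. Much of its control is on proteins, and the values here are RNA levels alone. In whole liver, fewer cells of a type and less RNA per cell cannot be told apart.

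Values are FPKM, in which reads are divided by gene length and a library size, so that levels can be compared between genes. The library size that the values imply was 0.89 (ASK1+hep replicate 3) to 1.06 (ASK1f/f replicate 1) times the reads on genes. It was thus not the plain total of these reads. Libraries held 13367742 to 16163378 reads on genes, and the member with the fewest reads in any liver, Atg10, still had 38. Map3k5 was at 4.71 to 19.8 FPKM in the libraries labelled ASK1f/f and at 7.68 to 16.4 FPKM in those labelled ASK1+hep, and the highest value was in ASK1f/f replicate 5, against its label, so every genotype difference below is one between labelled groups. The library labelled ASK1+hep replicate 3 stood apart from the other 9, with a root mean square difference from the mean of 10 livers of 0.471 log2 units over all genes tested, against 0.202 to 0.293 in the others. Counts over the members and by role, and the log2 fold changes of several members that it moved, are therefore also given without it. Summed levels of 6 hepatocyte markers were 32066 to 44324 FPKM in ASK1f/f and 38647 to 48042 FPKM in ASK1+hep livers, so the ranges overlapped. Of these 6 markers 1 had an unadjusted p under 0.05 between genotypes in limma, beside 5.77% of all genes tested. No tested marker of the other lists had. Sums of the lists for other cell types overlapped between genotypes, with 60.1 to 97.8 and 45.0 to 93.0 FPKM for 6 Kupffer cell or macrophage markers, 13.5 to 24.6 and 11.0 to 22.1 FPKM for 5 endothelial, 17.5 to 26.2 and 14.6 to 26.7 FPKM for 6 stellate, 1.59 to 3.44 and 1.81 to 2.44 FPKM for 4 cholangiocyte, 0.646 to 1.58 and 0.463 to 1.91 FPKM for 4 lymphocyte, 1.51 to 13.6 and 2.08 to 7.13 FPKM for 3 neutrophil, 308 to 449 and 287 to 954 FPKM for 3 erythroid, and 0 to 0.148 and 0 to 1.02 FPKM for 4 pancreatic acinar markers. Of these markers, Ly6g, Cpa1 and Pnlip stayed under 0.1 FPKM in every liver.

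Promoters of the members were searched for the motifs bound by the transcription factors named above, in the window from 250 bases before to 50 bases after each RefSeq gene start on GRCm38.p6. Sequences were found for 34 of the 41 genes. The CLEAR element TCACGTGA, known as a binding motif of TFEB and TFE3, was in the window of 1 of these 34 genes, Atg3, beside 1.12% of all 27025 genes with a sequence. Its E-box core CACGTG, which every CLEAR element holds, was in 5 of the 34 (14.7%), beside 8.09% of all genes, and TGATGNAA, searched as the ATF4 element on both strands like the others, was in 0 of the 34, beside 4.51% of all genes. The 6 E-box stretches are shown because they are the only places in these windows with the core of the TFEB and TFE3 motif, with the core in capitals, 5′ to 3′ on the strand of the gene, and the second Atg3 stretch is the one that holds a CLEAR element.
Atg3, chr16:45158723-45158752, plus strand: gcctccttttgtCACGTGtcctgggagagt
Atg3, chr16:45158746-45158775, plus strand: ggagagtcgagtCACGTGaggccttaggtg
Atg5, chr10:44268313-44268342, plus strand: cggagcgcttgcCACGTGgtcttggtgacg
Atg7, chr6:114670952-114670981, plus strand: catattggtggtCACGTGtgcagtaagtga
Atg14, chr14:47568418-47568447, minus strand: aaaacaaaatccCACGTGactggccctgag
Bnip3, chr7:138909597-138909626, minus strand: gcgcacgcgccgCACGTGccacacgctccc
In the GENCODE M21 annotation the Atg3 stretches end 33 and 10 bases, the Atg5 stretch 16 bases and the Bnip3 stretch 78 bases before the gene, the Atg14 stretch overlaps an exon, and the Atg7 stretch lies in an intron, 27884 bases into the gene, since the RefSeq start used lies further downstream. These matches are letters in a window, and no binding was measured here.

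The members covered a wide range of levels in liver, and their order by level was much the same in all 10 livers, with Spearman correlations of 0.899 to 0.991 between any pair of livers over the 41 genes. Among the highest were the cargo receptor Sqstm1 (p62), with a mean of 133 FPKM over the 10 livers, Bnip3, a mitophagy receptor, at 63.0 FPKM, and Vmp1, an ER membrane protein of early autophagosomes, at 29.9 FPKM. Among the lowest were Pik3r4, the regulatory subunit of the class III PI3K, at 2.11 FPKM, Atg10 at 2.13 FPKM, Atg2b at 2.17 FPKM, and Tfeb and Tfe3 at 2.45 and 2.46 FPKM. Between livers of 1 genotype the median member varied by an SD of 0.19 log2 units, which was close to the 0.195 of all genes tested. The median was higher, at 0.222, over the 7616 genes in the members' range of mean FPKM.

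**Figure D1:**
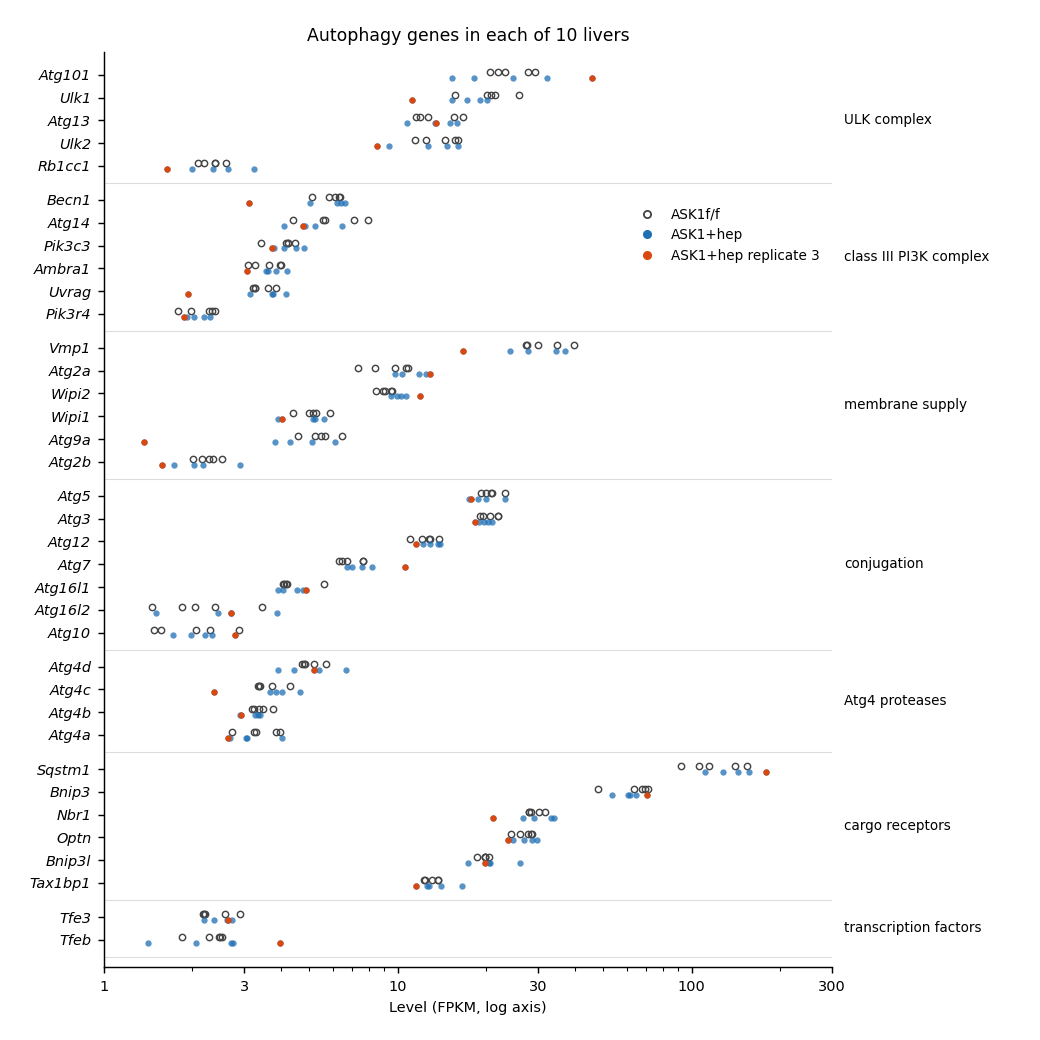
Level of 36 of the 41 autophagy genes in FPKM on a log axis, with 1 point per liver, open for the 5 ASK1f/f livers and filled for the 5 ASK1+hep livers, grouped by role. The cargo receptors Sqstm1 and Bnip3 lie highest, the groups overlap for every gene, and ASK1+hep replicate 3 (orange) is often at an end of the range.

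Genotype differences were tested with limma after taking log2(FPKM + 1), a scale that understates the change of low genes. None of the 41 members passed an adjusted p of 0.05, and 0 of all 13306 genes did (0%). At an unadjusted p under 0.05 in limma there were also 0 of 41 members, beside 5.77% of all genes tested. The groups overlapped for all 41 members, whereas 0.864% of all genes had groups that did not overlap. In ASK1+hep livers 23 members were higher and 18 lower, with a median log2 fold change of 0.0052, beside −0.0065 over all genes tested. With each library scaled by all its reads instead, 10 of 41 were higher and the median was −0.06, beside −0.052 over all genes, so the balance of directions depended on the scaling. The log2 fold changes ran from −0.41 (Atg9a) to 0.31, and 37 of 41 were under 0.25 in size. On this log2(FPKM + 1) scale the 95% confidence interval lay within ±1 log2 unit for all 41 members and within ±0.5 log2 units for 31. A bound of ±1 unit is 2-fold in FPKM + 1, and the bound in FPKM itself is wider. Without ASK1+hep replicate 3, 23 of 41 were again higher, 0 were at an unadjusted p under 0.05 in limma beside 4.54% of all genes, and the median was 0.017.

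**Figure D2:**
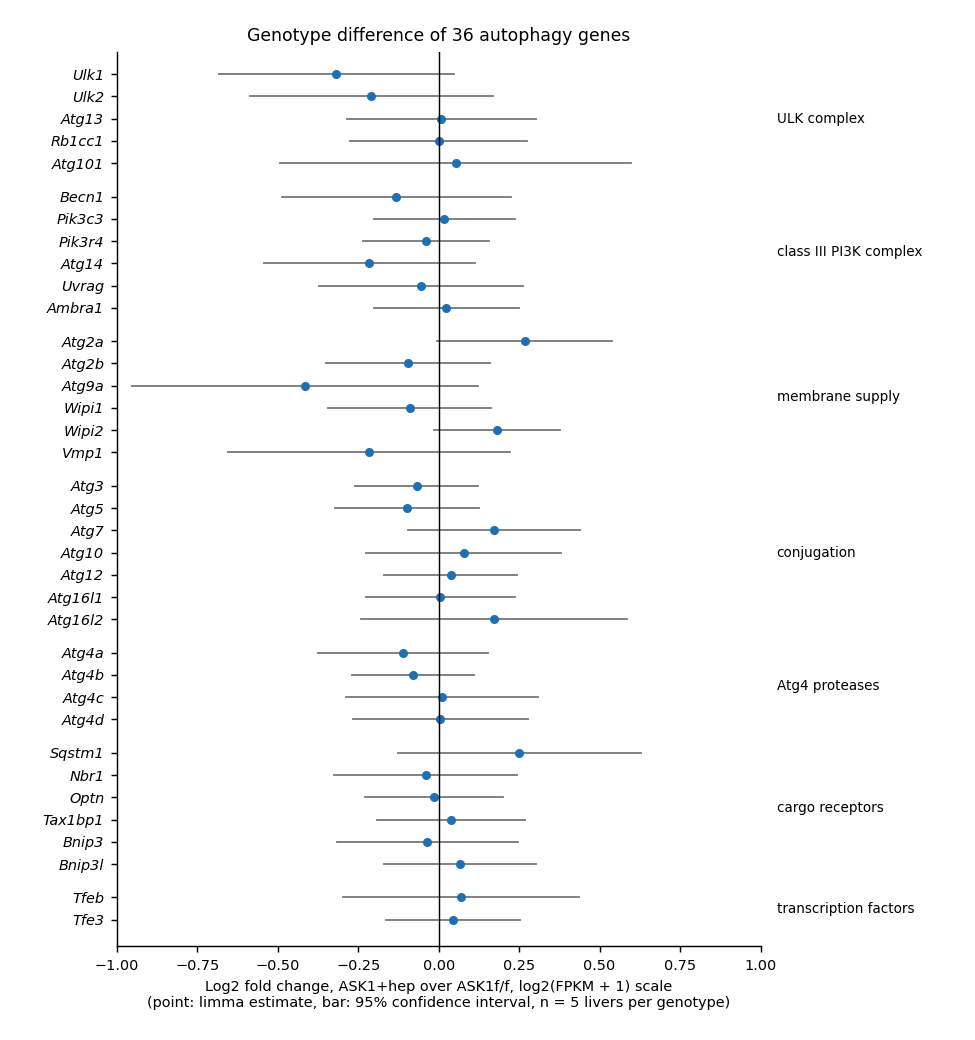
Log2 fold change of ASK1+hep over ASK1f/f livers for 36 of the 41 autophagy genes on the log2(FPKM + 1) scale, with limma estimates as points and 95% confidence intervals as bars (5 livers per genotype). Every interval includes 0, and the widest are those of Atg9a and Atg101.

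In the ULK complex, which starts autophagosome formation, 2 of 5 genes were higher and 3 lower (0 and 5 with scaling by all reads, and again 2 and 3, with Rb1cc1 and Atg101 trading places, without ASK1+hep replicate 3), and none passed the test. Ulk1 (ENSMUSG00000029512, chr5:110784488-110810097), the kinase itself, was at 20.7, 21.4, 20.1, 15.6 and 25.9 FPKM in ASK1f/f livers and at 17.2, 20.1, 11.1, 15.3 and 19.1 FPKM in ASK1+hep livers, each in the order of replicates 1 to 5, as in all such lists. The lowest value was in ASK1+hep replicate 3 and the highest in ASK1f/f replicate 5, and the other 8 livers overlapped. ASK1f/f livers averaged 20.7 ± 3.65 FPKM (SD, n = 5), while ASK1+hep livers averaged 16.5 ± 3.54 FPKM (SD, n = 5), a log2 fold change of −0.32 (SE 0.17, 95% interval −0.68 to 0.046), with an unadjusted p of 0.0812 and an adjusted p of 0.812 in limma and p = 0.103 in an exact two-sided permutation test. Without ASK1+hep replicate 3 the log2 fold change of Ulk1 was −0.19. Ulk2, its paralog, had a log2 fold change of −0.21 and its partners Atg13, Rb1cc1 (FIP200, the scaffold) and Atg101 had 0.0083, −0.00067 and 0.053. That of Atg101 was −0.155 without ASK1+hep replicate 3. Atg101 (ENSMUSG00000037204, chr15:101284272-101290945), which stabilizes ATG13, was at 21.9, 23.2, 27.7, 29.2 and 20.6 FPKM in ASK1f/f and at 18.2, 24.7, 45.6, 32.1 and 15.3 FPKM in ASK1+hep livers, so that both the highest and the lowest value lay in ASK1+hep livers, in replicates 3 and 5. Rb1cc1 (ENSMUSG00000025907, chr1:6206197-6276648) was at 2.39, 2.10, 2.39, 2.18 and 2.61 FPKM in ASK1f/f and at 2.64, 2.34, 1.64, 2.00 and 3.24 FPKM in ASK1+hep livers. Here ASK1+hep replicate 3 was lowest and replicate 5 highest, the reverse of Atg101.

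In the class III PI3K complex, which makes the phosphoinositide that recruits later factors, 2 of 6 genes were higher and 4 lower (0 and 6 with scaling by all reads, and 4 and 2 without ASK1+hep replicate 3), with a median log2 fold change of −0.048, which was 0.036 without that liver. Becn1 (Beclin 1; ENSMUSG00000035086, chr11:101285952-101302286), the core scaffold, was at 6.10, 6.33, 5.09, 5.81 and 6.36 FPKM in ASK1f/f and at 6.42, 5.02, 3.11, 6.22 and 6.59 FPKM in ASK1+hep livers. A single value, that of ASK1+hep replicate 3, lay below the range of the other 9 livers. The log2 fold change of Becn1 was −0.13 (SE 0.16, 95% interval −0.49 to 0.22), with an adjusted p of 0.859 in limma, and it was 0.023 without that liver. Uvrag, a Beclin 1 partner in vesicle maturation, was also lowest in ASK1+hep replicate 3, at 1.94 FPKM against 3.15 to 4.15 FPKM in the other ASK1+hep livers, and its log2 fold change of −0.056 was 0.079 without that liver. Atg14, the subunit that directs the complex to autophagy, had the largest difference of the 6, with 6.12 ± 1.39 FPKM (SD, n = 5) in ASK1f/f livers, 5.08 ± 0.880 FPKM (SD, n = 5) in ASK1+hep livers and a log2 fold change of −0.22 (SE 0.15, 95% interval −0.54 to 0.11). The catalytic subunit Pik3c3, the regulatory subunit Pik3r4 and Ambra1, an activator of Beclin 1, had log2 fold changes of 0.018, −0.04 and 0.024.

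In membrane supply 2 of 6 genes were higher and 4 lower, under both scalings and without ASK1+hep replicate 3. The 2 higher ones, Atg2a and Wipi2, had the lowest p of the 41 in limma and were chosen for that, after their values were seen. Atg2a (ENSMUSG00000024773, chr19:6241668-6262335), a lipid transfer protein, was at 10.8, 9.81, 7.31, 8.37 and 10.6 FPKM in ASK1f/f and at 10.3, 12.5, 12.8, 11.8 and 9.77 FPKM in ASK1+hep livers. The 3 highest values were in ASK1+hep livers and the 2 lowest in ASK1f/f livers, with overlap between. The log2 fold change of Atg2a was 0.27 (SE 0.12, 95% interval −0.0058 to 0.54), with an unadjusted p of 0.0543 and an adjusted p of 0.812 in limma, and p = 0.0714 in the exact two-sided permutation test. Wipi2 (ENSMUSG00000029578, chr5:142627698-142670588), which reads the phosphoinositide and recruits ATG16L1, was at 9.48, 8.90, 8.45, 9.02 and 9.53 FPKM in ASK1f/f and at 10.7, 9.94, 11.9, 10.3 and 9.49 FPKM in ASK1+hep livers. Its groups nearly separated, since only ASK1+hep replicate 5 was within the ASK1f/f range. The log2 fold change of Wipi2 was 0.18 (SE 0.089, 95% interval −0.013 to 0.38), with an unadjusted p of 0.065 and an adjusted p of 0.812 in limma. The exact two-sided permutation test gave p = 0.0159, where 0.00794 is the smallest that 252 splits of the livers can give. Wipi2 was the 1 member of 41 with a permutation p under 0.05, and this p is not adjusted for 41 genes. The share of all genes at such a permutation p was not computed, so no result about the members is drawn from this count. Its log2 fold change without ASK1+hep replicate 3 was 0.14, and that of Atg2a was 0.23.

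Atg9a (ENSMUSG00000033124, chr1:75180860-75192196), the scramblase on the vesicles that seed the autophagosome, had the largest fold change in size of all members and is named for that, after its values were seen. It was at 6.43, 5.47, 4.56, 5.66 and 5.21 FPKM in ASK1f/f and at 6.13, 3.81, 1.37, 4.28 and 5.12 FPKM in ASK1+hep livers. ASK1+hep replicate 3 was far below every other liver, and the remaining values overlapped. Atg9a had a log2 fold change of −0.41 (SE 0.25, 95% interval −0.95 to 0.12), with an adjusted p of 0.812 in limma, and one of −0.16 without that liver. A second annotated gene, Gm29253, shares 31.8% of the exonic bases of Atg9a on the same strand, so reads there may have been divided or dropped. Vmp1, Wipi1 and Atg2b had log2 fold changes of −0.22, −0.091 and −0.10, and Vmp1 and Atg2b were lowest in ASK1+hep replicate 3 as well. Leaving out that liver gave −0.049 for Vmp1.

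**Figure D3:**
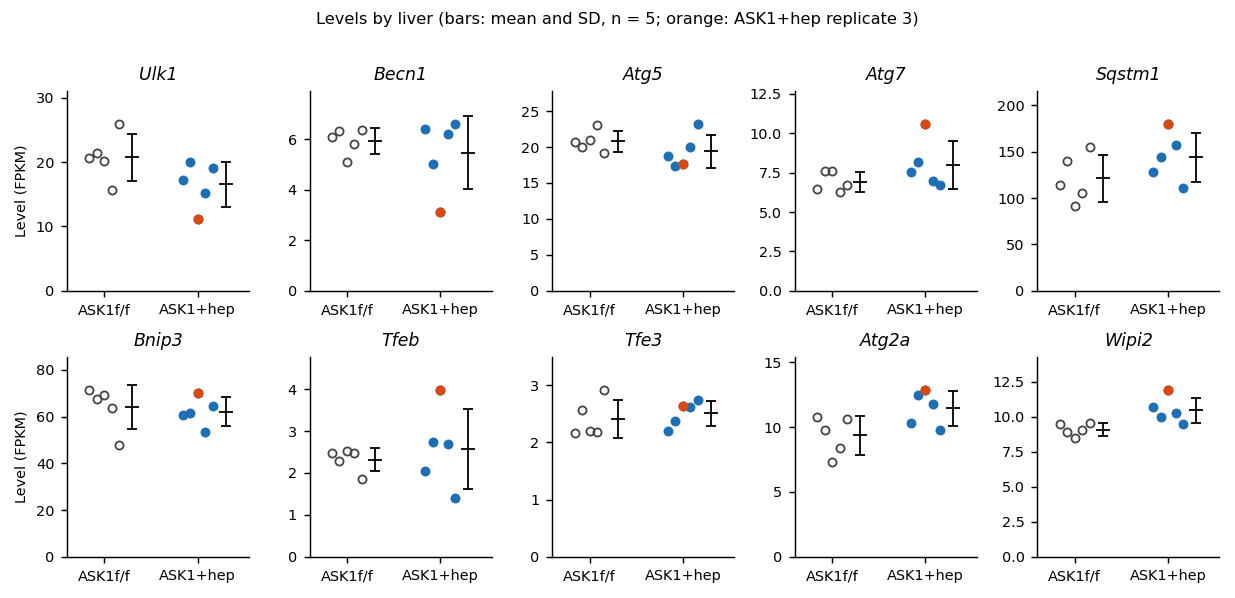
Level in FPKM of 10 autophagy genes in each liver of both genotypes, with the mean and SD of 5 livers beside the points and ASK1+hep replicate 3 in orange. The groups overlap in every panel, least in that of Wipi2, and the orange point is lowest for Ulk1 and Becn1 and highest for Atg7, Sqstm1, Tfeb, Atg2a and Wipi2.

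In the conjugation systems, which join ATG12 to ATG5 and modify the growing membrane, 5 of 7 genes were higher and 2 lower (3 and 4 with scaling by all reads, and 4 and 3 without ASK1+hep replicate 3), and the median log2 fold change was 0.038. Atg5 (ENSMUSG00000038160, chr10:44268358-44364291), the acceptor of ATG12, was at 20.8, 20.0, 21.0, 23.1 and 19.1 FPKM in ASK1f/f and at 18.8, 17.4, 17.7, 20.0 and 23.1 FPKM in ASK1+hep livers. Atg7 (ENSMUSG00000030314, chr6:114643097-114860614), the E1-like enzyme of both systems, was at 6.45, 7.58, 7.59, 6.28 and 6.71 FPKM in ASK1f/f and at 7.55, 8.17, 10.6, 7.00 and 6.71 FPKM in ASK1+hep livers. For Atg5 the 3 lowest livers were ASK1+hep livers, below every ASK1f/f liver, and the other 2 lay within the ASK1f/f range or at its top, while for Atg7 the highest liver was ASK1+hep replicate 3. The log2 fold change of Atg5 was −0.10 (SE 0.10, 95% interval −0.32 to 0.12) with an adjusted p of 0.842 in limma, and that of Atg7 was 0.17 (SE 0.12, 95% interval −0.095 to 0.44) with an adjusted p of 0.814 in limma. Without ASK1+hep replicate 3 the log2 fold change of Atg7 was 0.077. Atg3, an E2-like enzyme and the gene with the CLEAR element shown above, was among the steadiest members, with 20.6 ± 1.37 FPKM (SD, n = 5) in ASK1f/f livers, 19.6 ± 1.06 FPKM (SD, n = 5) in ASK1+hep livers and a highest liver only 1.2 times the lowest. Atg10, the E2-like enzyme of ATG12, Atg12 itself and the membrane-side factors Atg16l1 and Atg16l2 had log2 fold changes of 0.077, 0.038, 0.0048 and 0.17. The 4 Atg4 proteases, cysteine proteases of the pathway, lay between 3.26 FPKM (Atg4a) and 5.08 FPKM (Atg4d) and had log2 fold changes of −0.11 (Atg4a), −0.08 (Atg4b), 0.0099 (Atg4c) and 0.0044 (Atg4d), all 4 below 0 with scaling by all reads and 3 of 4, Atg4d included, without ASK1+hep replicate 3.

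Of the 6 cargo receptors, which bring ubiquitinated proteins or organelles to the autophagosome, 3 were higher and 3 lower (1 and 5 with scaling by all reads, and 5 and 1 without ASK1+hep replicate 3, where Nbr1 and Optn turned). Sqstm1 (ENSMUSG00000015837, chr11:50199366-50210827) was at 114, 140, 91.6, 106 and 155 FPKM in ASK1f/f and at 128, 144, 179, 157 and 111 FPKM in ASK1+hep livers. The groups overlapped, with the lowest liver in ASK1f/f and the highest, again replicate 3, in ASK1+hep. Its log2 fold change was 0.25 (SE 0.17, 95% interval −0.13 to 0.63), with an adjusted p of 0.812 in limma and p = 0.206 in the exact two-sided permutation test. Without ASK1+hep replicate 3 the log2 fold change of Sqstm1 was 0.17, and without ASK1f/f replicate 3 it was 0.156. Bnip3 (ENSMUSG00000078566, chr7:138890836-138909519) was at 71.2, 67.7, 69.4, 63.8 and 48.0 FPKM in ASK1f/f and at 60.5, 61.5, 70.1, 53.5 and 64.7 FPKM in ASK1+hep livers, and ASK1f/f replicate 5 was the lowest of the 10. Bnip3 had a log2 fold change of −0.035 (SE 0.13, 95% interval −0.32 to 0.24), with an adjusted p of 0.958 in limma. Nbr1 (ENSMUSG00000017119, chr11:101552149-101581951), a receptor related to p62, was at 28.0, 28.0, 30.3, 28.4 and 31.7 FPKM in ASK1f/f and at 33.3, 29.0, 21.0, 26.7 and 34.1 FPKM in ASK1+hep livers. Nbr1 had its lowest value in ASK1+hep replicate 3 and its highest values in ASK1+hep replicates 5 and 1. The log2 fold changes of Nbr1, Optn, Tax1bp1 and the second mitophagy receptor Bnip3l were −0.041, −0.014, 0.039 and 0.067.

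Both transcription factors of lysosome and autophagy genes were low. Tfeb (ENSMUSG00000023990, chr17:47737030-47792419) was at 2.48, 2.29, 2.51, 2.47 and 1.85 FPKM in ASK1f/f and at 2.05, 2.74, 3.97, 2.70 and 1.41 FPKM in ASK1+hep livers. Tfe3 (ENSMUSG00000000134, chrX:7762560-7775202) was at 2.17, 2.57, 2.21, 2.19 and 2.91 FPKM in ASK1f/f and at 2.20, 2.37, 2.63, 2.63 and 2.74 FPKM in ASK1+hep livers. For Tfeb the ASK1+hep livers held both the highest value (replicate 3) and the lowest (replicate 5), while Tfe3 stayed within a narrow range. The log2 fold changes were 0.07 (SE 0.17, 95% interval −0.30 to 0.44) for Tfeb and 0.046 (SE 0.10, 95% interval −0.16 to 0.25) for Tfe3, with adjusted p of 0.929 and 0.916 in limma, and that of Tfeb was −0.059 without ASK1+hep replicate 3, while Tfe3 was −0.011 with scaling by all reads.

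The members were also compared from liver to liver with the level of Atf4, a transcription factor of the integrated stress response whose known targets include autophagy genes. Atf4 was at 30.8, 40.3, 33.3, 32.0 and 26.2 FPKM in ASK1f/f and at 27.9, 44.1, 66.9, 58.8 and 31.0 FPKM in ASK1+hep livers, so it was highest in ASK1+hep replicates 3 and 4. A slope, in log2 units of a gene per log2 unit of Atf4, was fitted with limma across the 10 livers with genotype as a term. Of the 41 members, 5 had an adjusted p at or below 0.05 (12.2%), beside 7.8% of all 13305 genes, and 14 had an unadjusted p under 0.05 (34.1%), beside 29.2% of all genes. The shares of the members were thus not far from those of all genes. Those reported singly were Atg101 with a slope of 0.97 (SE 0.18, adjusted p = 0.0421 in limma) and Tfeb with 0.58 (SE 0.15, adjusted p = 0.0481 in limma), which were higher where Atf4 was higher, and Nbr1 with −0.44 (SE 0.11, adjusted p = 0.0449 in limma) and Rb1cc1 with −0.43 (SE 0.11, adjusted p = 0.0467 in limma), which were lower. Of the 14, 5 had a positive and 9 a negative slope. Sqstm1, often named as an ATF4 target, had a slope of 0.35 with an adjusted p of 0.279 in limma. Atg5, Atg7 and Becn1 had slopes of −0.10, 0.26 and −0.43 with adjusted p of 0.639, 0.24 and 0.152 in limma.

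The calls in this slope depended on single livers and on the scaling. Without ASK1+hep replicate 3, 0 members and 0 of all genes passed, and 5 members were at an unadjusted p under 0.05 (12.2%) beside 14.2% of all genes in limma. The slopes without it were 0.77 for Atg101, 0.44 for Tfeb, −0.31 for Nbr1 and −0.37 for Rb1cc1, with adjusted p of 0.294 to 0.33 in limma. They kept their direction when any 1 of the 10 livers was left out, with ranges of 0.77 to 1.1 (Atg101), 0.44 to 0.72 (Tfeb), −0.49 to −0.31 (Nbr1) and −0.55 to −0.35 (Rb1cc1). With each library scaled by all its reads, 0 members passed, and the share of all genes is not given here. The number was also 0 when ASK1f/f replicate 1, 3 or 4 or ASK1+hep replicate 1, 2 or 5 was left out. In those leave-out fits 0% to 0.06% of all genes passed, so calls were lost over all genes as well. The number of members was 2 (4.88%, beside 6.77% of all genes) when ASK1f/f replicate 5 was left out, and 4 (9.76%, beside 7.46%) when ASK1f/f replicate 2 was. Without ASK1+hep replicate 4 it was 9 (22.0%), and the share over all genes rose as well, to 14.1%.

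**Figure D4:**
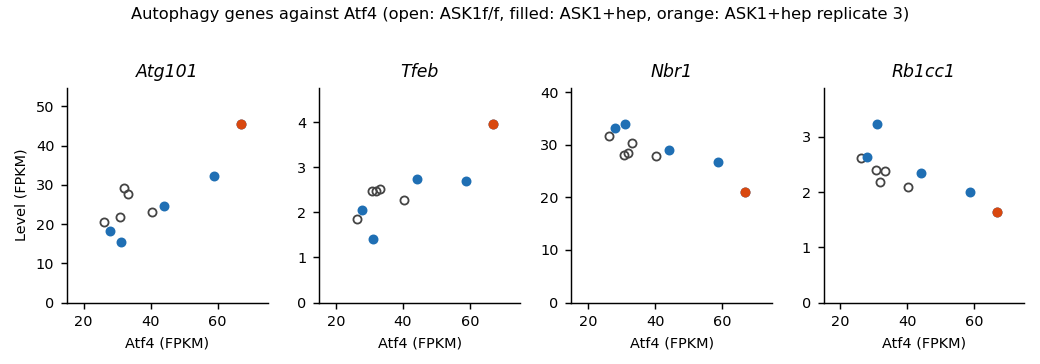
Level in FPKM of 4 of the 5 members with the lowest p in the slope on Atf4, against the Atf4 level of the same liver in FPKM, with open points for ASK1f/f, filled points for ASK1+hep and ASK1+hep replicate 3 in orange. Atg101 and Tfeb are highest and Nbr1 and Rb1cc1 lowest in the liver with the highest Atf4, 66.9 FPKM.

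Much of the difference between livers in the members was that of ASK1+hep replicate 3. It held the highest value of the 10 livers for 10 members and the lowest for 15, that is, 25 of 82 such extremes, and ASK1+hep replicate 5 held 17. Its members differed from their means by a root mean square of 0.44 log2 units, against 0.142 to 0.238 in the other 9 livers. Over all genes tested this liver stood apart as well, with 0.471 against 0.202 to 0.293, so the difference was not particular to the members. Among those highest in replicate 3 were Sqstm1, Atg101, Atg2a, Wipi2, Atg7 and Tfeb. Lowest there were Ulk1, Ulk2, Rb1cc1, Becn1, Uvrag, Ambra1, Atg2b, Atg9a, Vmp1, Atg3, Atg4a, Atg4c, Nbr1, Optn and Tax1bp1.

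Gene length and base composition moved with these differences. Across all genes tested, the difference of a liver from the mean of 10 had a Spearman correlation with gene length of −0.325 in both ASK1+hep replicates 3 and 4 and of 0.329 in ASK1+hep replicate 5, and with the GC content of the transcripts of 0.358, 0.274 and −0.517 in these livers. Over the 41 members the correlations with length were −0.268, −0.268 and 0.173, and those with GC content 0.415, 0.419 and −0.666. The slope on Atf4 had a Spearman correlation with length of −0.287 over the 41 members and −0.395 over all 13305 genes, and with GC content of 0.429 and 0.421. Genes of a library share its depth and preparation, so these values are descriptions. Atg101 and Tfeb have lengths of 1597 and 5669 bases and a GC content of 57.7% and 61.3%, and Nbr1 and Rb1cc1 have 6871 and 14690 bases and 47.8% and 38.8%. The part of length and base composition in the values of ASK1+hep replicate 3 and in the slopes was not tested.

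**Figure D5:**
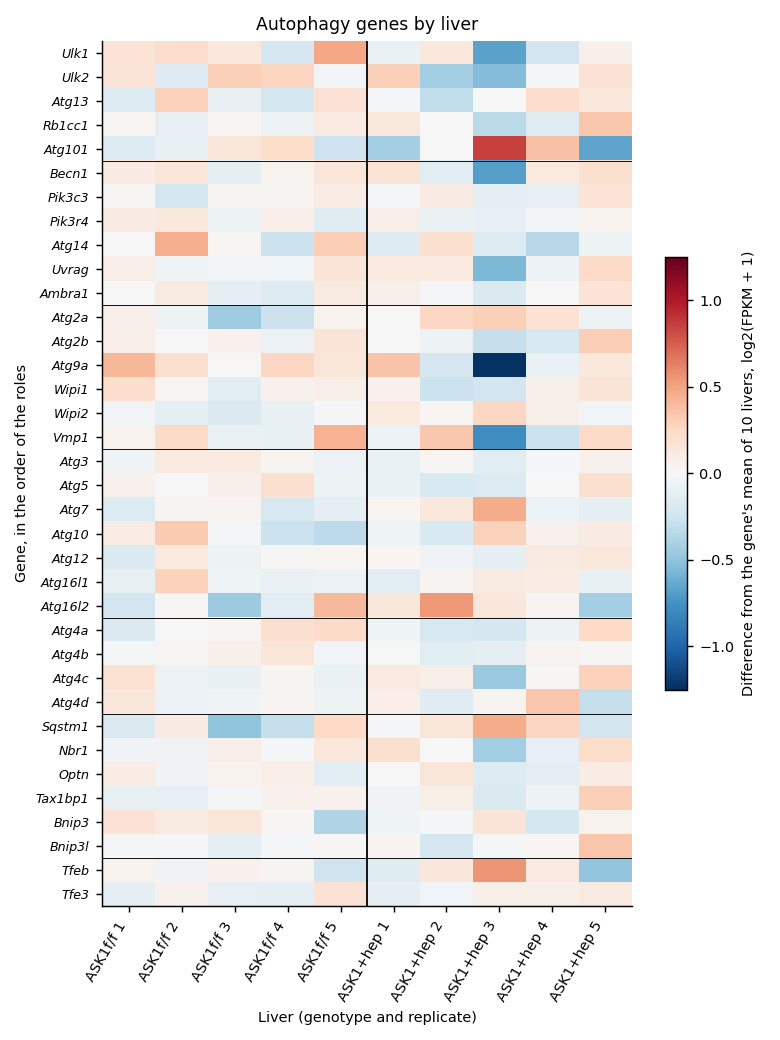
Difference of 36 of the 41 autophagy genes in each liver from its mean of 10 livers, in log2(FPKM + 1) units, with genes in the order of their roles and livers by genotype and replicate. The column of ASK1+hep replicate 3 holds the strongest colours in both directions, red for Atg101 and blue for Atg9a, Vmp1, Becn1 and Ulk1.

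Genes that act around the 41 were taken from 4 further lists and compared in the same limma fit. In that limma fit 5.77% of all genes tested had an unadjusted p under 0.05. Of 14 other genes of autophagosome formation and fusion that passed the filter, 6 were higher and 8 lower, and 1 had an unadjusted p under 0.05 in limma. This was Wdr45b, a WIPI-family protein related to Wipi2, at 7.89, 11.9, 7.11, 7.81 and 7.88 FPKM in ASK1f/f and 5.85, 5.76, 7.70, 5.60 and 6.54 FPKM in ASK1+hep livers, with a log2 fold change of −0.37, an unadjusted p of 0.0196 and an adjusted p of 0.812 in limma. Vamp8, a SNARE of autophagosome fusion, had a log2 fold change of 0.43 and reached 96.6 FPKM in ASK1+hep replicate 3. Of 27 genes of mTORC1, AMPK and amino acid sensing, 9 were higher and 18 lower, with 0 at an unadjusted p under 0.05 in limma. Sesn2 and Nprl2, both of which restrain mTORC1 when amino acids are short, had log2 fold changes of 0.32 and 0.20. Of 15 mitophagy and ER-phagy genes 10 were higher and 5 lower, with 0 at an unadjusted p under 0.05, and Sec62 and Calcoco1, both receptors in ER-phagy, had 0.18 and 0.15. Of 13 transcriptional regulators of autophagy 7 were higher and 6 lower, again with 0, and Atf4 itself and Zkscan3, a repressor of autophagy genes, had 0.41 and −0.22. None of these 69 genes passed an adjusted p of 0.05 in limma. With scaling by all reads the 4 lists had 4, 7, 9 and 6 genes higher, in the same order, and without ASK1+hep replicate 3 they had 5, 10, 9 and 7.

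Other annotated genes share exons with some members. In GENCODE M21, 15 of the 41 share at least 1 exonic base with another gene, and 7 share 10% or more of their exonic bases with 1 other gene. Among these were Becn1 with Cntd1 (43.9%), Bnip3 with Gm45507 (22.3%), Atg4d with Kri1 (19.3%), Uvrag with Gm45187 (17.6%) and Sqstm1 with Mrnip (17.3%), all on the opposite strand, and Atg9a as given above. Whether reads were counted by strand is not given in the sources used here, so reads of Becn1 and Cntd1, for example, cannot be told apart where they overlap. Atg4a and Bnip3l also have a pseudogene listed separately in the table, and reads shared between such copies make their levels uncertain.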

How the data were processed

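Bulk RNA sequencing of 10 mouse livers was taken from a gene table. The authors purified poly-A RNA, cleaned reads (fastp in the submitters' processing notes), mapped them with Hisat2, counted them with FeatureCounts and deposited FPKM values per gene. Build, annotation and strand setting are not given in the sources used here. Of the gene identifiers, 54409 were in GENCODE M21 and 98.3% of these had the same position, so coordinates are on GRCm38. FPKM times gene length gave whole multiples of 1 read (largest distance 0.000182 reads), and these reads served for the filter, the depth and limma-voom.

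The genotype test was that of limma 3.58.1 (R 4.3.3), two-sided, after log2(FPKM + 1), with its trend option and Benjamini-Hochberg adjustment over 13306 genes. The same tool gave the slope on log2(Atf4 + 1). Both fits were also run on simulated reads, whose outcome is not reported here. Those reads had independent genes, no library that stood apart and, for the slope, a reduced spread. They therefore cannot speak to the slope calls in these livers. Sample labels gave genotype, replicate number and an animal tag. The tags were consecutive in most pairs of the same replicate number, but no source ties a tag or number to a litter or batch. The p-values measure the spread between these livers, and limma moderates that spread towards a trend over all genes tested. The members and all lists were chosen with earlier results of these data known. By rule, values in every liver were given for Ulk1, Becn1, Atg5, Atg7, Sqstm1, Bnip3, Tfeb and Tfe3, for members among the 5 with the lowest p in the slope, and for members at an unadjusted p under 0.05 or with groups that do not overlap, of which there were 0, and from each further list the 2 genes of lowest p were named. 5 members are not reported singly here. Alternatives were no filter, 10 reads in every liver, a pseudocount of 0.1, scaling by all reads, limma-voom with and without quality weights, a covariate for the prefix of the animal tag, a replicate block, no genotype term for the slope, and leaving out each liver. Figures were drawn with matplotlib 3.10.9.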

Additional observations from a re-analysis of the deposited data

Results flagged for a closer look

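1 value stood far from the others of its genotype. Atg16l1, a factor of the conjugation systems that acts at the membrane, was at 5.59 FPKM in ASK1f/f replicate 2 and at 4.08 to 4.21 FPKM in the other 4 ASK1f/f livers, so that its gap to the nearest liver was 0.912 of the range of the group. Of the 82 groups examined, 41 genes in each of 2 genotypes, this was the 1 flagged, and chance flags about 1 in 20.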

How the results depend on the processing

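No member passed an adjusted p of 0.05 between genotypes in limma under any of the 18 alternatives. At an unadjusted p under 0.05 there were 2 members with no filter (Atg2a and Wipi2), beside 4.63% of all genes tested. There was 1 with limma-voom and quality weights (Atg2a), beside 7.3%, and 1 with the replicate block (Ulk1), beside 6.61%. When 1 liver was left out, the share of all genes was 4.19% (ASK1f/f replicate 2) to 12.96% (ASK1+hep replicate 5). The number of members was then 0 to 2. These were Atg2a without ASK1f/f replicate 1 or 5, Ulk1 without ASK1f/f replicate 4 or ASK1+hep replicate 2, Atg9a without ASK1+hep replicate 1, and both Atg2a and Wipi2 without ASK1+hep replicate 5. The median log2 fold change of the members was −0.0601 with scaling by all reads and −0.0246 to 0.0167 when 1 liver was left out. Members passing in the slope on Atf4 numbered 0 with scaling by all reads and 0 with no filter, and the shares of all genes there are not given. With the replicate block 0 members and 0 of all genes passed. When 1 liver was left out the number was 0 to 9, beside 0% to 14.1% of all genes. Direction turned for Tfeb (−0.00107), Atg101 (−0.0576), Nbr1 (0.0129) and Rb1cc1 (0.0248) with quality weights, and for Tfe3 (−0.0109) and Atg101 (−0.0247) with scaling by all reads. Others that turned were Uvrag with quality weights, and Atg13, Pik3c3, Ambra1, Atg12, Atg16l1, Atg4c, Atg4d, Tax1bp1 and Bnip3l with scaling by all reads. With 1 liver left out, log2 fold changes ran from −0.198 to 0.0232 for Becn1, −0.134 to 0.0161 for Bnip3, −0.0594 to 0.202 for Tfeb, −0.155 to 0.224 for Atg101, −0.104 to 0.0639 for Nbr1 and −0.0882 to 0.0828 for Rb1cc1, and the cause was not tested. Samples of the same replicate number had correlations of 0.0212 to 0.174 over all genes (mean 0.107, against −0.0275 for different numbers), and 6 of 10 livers correlated best with their own number. Together with the mostly consecutive animal tags, this is a hint of pairing and not a stated design. Since no source states a pairing and some pairs were under 0.1, the block stayed an alternative. Every member had at least 38 reads in each liver. The width of the intervals came from the spread between livers of a genotype, as moderated by limma over all genes tested.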
